A study of Homo sapiens with 24 samples.

Results

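Very long genes were followed in SBC-3 cells, an established human line from a small cell lung carcinoma, after knockdown of the RNA-binding proteins SFPQ and NONO or treatment against the long noncoding RNA NEAT1. A gene counted as long when the distance from the first to the last annotated base in the deposited count tables, its span, was over 300 kb. Of 60605 genes in the tables, 1156 met this, and 603 of them also reached 0.5 CPM, read counts scaled to the size of the library, in at least 3 libraries and are the genes described here. They are 603 of 18451 genes measured by the same rule, with 395 spanning 300 to 500 kb, 168 spanning 500 to 1000 kb and 40 spanning over 1000 kb. The other 553 long genes were too low to be measured, and 166 of these had no read in any library. By annotation 502 of the 603 were protein-coding, 98 were of another type, mostly long noncoding RNAs, and 3 had no type.

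All cells were wild type and were harvested 72 h after reverse transfection, in which cells are plated onto the lipid complexes, with Lipofectamine RNAiMAX and 10 nM of oligonucleotide. The 24 libraries were made from poly(A)-selected RNA and formed 8 groups of 3. One arm used small interfering RNAs (siRNAs). Its control was siCtrl, SFPQ was targeted by siSFPQ-2 or siSFPQ-3, and for NONO the reagents were called siNONO-3 and siNONO-4. The other arm used antisense oligonucleotides (ASOs): the control ASO-Ctrl, and ASO-NEAT1-1047 and ASO-NEAT1-1473 against NEAT1. Nothing in the labels ties the 3 libraries of a group to different cultures. The p-values therefore reflect library-to-library spread, which may be technical.

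As background, transcribing a gene of this size takes RNA polymerase II hours, most of the way through introns that are later spliced out. Long genes are rich in neuronal adhesion molecules, receptors and channels, and several of them are common fragile sites, where replication and transcription can collide. SFPQ and NONO are partner proteins that bind nascent RNA and, with NEAT1, build nuclear bodies called paraspeckles. SFPQ is known from other cell types, neurons above all, as a factor that long genes need for their transcription to be carried to the end.

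Windows around the start site are shown for 5 long genes on which the results turn: ROBO2 and LPP, which fell after SFPQ knockdown, CNTNAP2 and FRMD4B, which rose, and PDE4B, which was not called. Each runs from 250 bases before to 50 bases after the start in RefSeq (GRCh38.p14), on the gene's own strand. They are chr3:76310630-76310929 (plus strand) for ROBO2, chr3:188153648-188153947 (plus) for LPP, chr7:146116551-146116850 (plus) for CNTNAP2, chr3:69386039-69386338 (minus) for FRMD4B and chr1:65792260-65792559 (plus) for PDE4B. Except for PDE4B, each lies wholly inside the deposited span of its gene, so other start sites are annotated as well. Capitals mark GGGCGG, the core of the GC box, or TATAAA, the TATA box core, on either strand.
ROBO2: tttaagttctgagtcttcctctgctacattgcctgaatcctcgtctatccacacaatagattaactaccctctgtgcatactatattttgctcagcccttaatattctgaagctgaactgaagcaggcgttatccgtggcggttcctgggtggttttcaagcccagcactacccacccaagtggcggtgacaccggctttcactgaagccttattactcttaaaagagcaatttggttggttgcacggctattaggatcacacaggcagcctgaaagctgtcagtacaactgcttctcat
LPP: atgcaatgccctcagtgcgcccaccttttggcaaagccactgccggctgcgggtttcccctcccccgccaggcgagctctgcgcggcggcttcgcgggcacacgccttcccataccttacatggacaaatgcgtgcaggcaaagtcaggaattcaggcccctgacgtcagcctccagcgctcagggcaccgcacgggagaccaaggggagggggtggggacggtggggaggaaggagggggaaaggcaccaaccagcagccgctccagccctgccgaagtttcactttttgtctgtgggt
CNTNAP2: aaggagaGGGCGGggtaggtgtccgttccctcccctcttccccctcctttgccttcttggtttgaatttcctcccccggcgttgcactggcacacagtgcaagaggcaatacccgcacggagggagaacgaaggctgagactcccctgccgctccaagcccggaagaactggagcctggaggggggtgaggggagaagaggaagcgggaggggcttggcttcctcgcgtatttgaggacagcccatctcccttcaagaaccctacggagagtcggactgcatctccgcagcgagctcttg
FRMD4B: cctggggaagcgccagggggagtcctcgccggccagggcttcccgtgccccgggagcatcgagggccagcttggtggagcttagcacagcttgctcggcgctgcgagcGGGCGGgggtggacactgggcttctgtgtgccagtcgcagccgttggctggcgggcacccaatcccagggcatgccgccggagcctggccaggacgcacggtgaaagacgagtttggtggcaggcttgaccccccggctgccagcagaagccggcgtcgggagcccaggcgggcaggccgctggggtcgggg
PDE4B: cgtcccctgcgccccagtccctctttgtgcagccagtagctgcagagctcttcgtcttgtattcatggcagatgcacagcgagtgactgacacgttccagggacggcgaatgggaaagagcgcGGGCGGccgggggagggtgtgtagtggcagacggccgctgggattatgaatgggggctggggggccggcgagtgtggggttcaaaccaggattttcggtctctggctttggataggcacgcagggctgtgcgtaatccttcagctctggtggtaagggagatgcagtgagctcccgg
Both falling genes lacked either motif in these 300 bases, and CNTNAP2, FRMD4B and PDE4B each held 1 GGGCGG. Over the long genes the motif did not follow that pattern. It was found in 57.4% of 270 windows of genes that fell after SFPQ knockdown, 51.2% of 82 that were not called and 50.5% of 111 that rose. The share was 54.6% over the 463 long genes with a window, 67.6% over 11840 measured genes and 44.6% over all 27305 windows in the table. TATAAA stood in 8.89%, 8.54% and 9.91% of the windows of fallen, uncalled and risen long genes, against 6.35% of measured genes and 12.0% of all windows. The motifs do not overlap each other, and a match describes the letters only.

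Total counts ran from 4243196 to 14886353 per library. SFPQ RNA was 1230 ± 44.3 CPM (SD, n = 3) in siCtrl, 204 ± 45.3 in siSFPQ-2 and 220 ± 27.7 in siSFPQ-3, and NONO RNA was 402 ± 17.9 CPM in siCtrl, 69.3 ± 9.59 in siNONO-3 and 70.1 ± 5.22 in siNONO-4. NEAT1 RNA was 300 ± 84.8 CPM in ASO-Ctrl. It was 297 ± 46.1 CPM in the libraries labelled ASO-NEAT1-1047 and 207 ± 25.2 CPM in those labelled ASO-NEAT1-1473, and the difference was not called (edgeR adjusted p = 1). Among small cell lung cancer markers, YAP1 stood at 296 to 504 CPM and NEUROD1 at 0.605 to 16.4 CPM across libraries, while INSM1 and GRP had no read. Of 13 such markers 6 were measured, and 3 fell and 2 rose after SFPQ knockdown. Of 15 markers of other cell types, 6 were measured, of which 1 fell and 2 rose after SFPQ knockdown. COL1A1 stood at 10.5 to 37.7 CPM and ACTA2 at 2.78 to 11.7 CPM across libraries, while DCN had no read and KRT5, SFTPC and CD3E had 3 to 5 in all. The summed level of that list was 87.5 to 93.8 CPM in siCtrl and 24 to 45.3 CPM in the siSFPQ libraries. Most of it was TP63, which spans 265.9 kb and fell from a mean of 70.9 CPM to 9.86 and 2.99 CPM with the 2 siRNAs. Mitochondrial transcripts took 7.63% to 9.07% of counts in siCtrl, 9.59% to 11.6% in the siSFPQ libraries and 7.97% to 10.3% in the siNONO libraries, and the part of either measure in the results below was not tested.

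ROBO2 encodes a receptor for the Slit ligands that guide axons, and with 1743.3 kb (chromosome 3, 75906695 to 77649964, hg38, plus strand, 34 exons once overlapping ones are merged) it is among the longest genes measured. It stood at 314, 289 and 341 CPM in siCtrl. With siSFPQ-2 it was 25.3, 18.7 and 14.7 CPM, and with siSFPQ-3 it was 12.6, 17.2 and 11.5 CPM. All 6 siSFPQ libraries lay below every control by an order of magnitude. The log2 fold change was -4.26 (SE 0.11, edgeR adjusted p = 4.03e-23), and an exact 2-sided permutation test over the 9 libraries gave p = 0.0119, the smallest that 84 splits allow. With siNONO-3 it was 144, 151 and 156 CPM and with siNONO-4 it was 167, 170 and 169 CPM, which put the siNONO libraries between the control and the siSFPQ libraries without overlap (log2 fold change -0.98, SE 0.09, adjusted p = 1.84e-08, exact p = 0.0119). ROBO2 was 286, 251 and 298 CPM in ASO-Ctrl and 254 to 297 CPM in the 6 libraries labelled ASO-NEAT1 (exact permutation p = 0.952). ROBO2 and LPP were chosen with earlier results of these data known, so their p-values are descriptions. The exact test also pools the libraries of both reagents against a target.

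LPP encodes a LIM-domain protein of cell contacts and is the host of a microRNA. It spans 737.4 kb (chromosome 3, 188153284 to 188890671, plus strand, 29 merged exons). Its level was 346, 378 and 339 CPM in siCtrl. It was 42.6, 42.8 and 27.3 CPM with siSFPQ-2 and 27.1, 33.3 and 29.3 CPM with siSFPQ-3, again with no overlap (log2 fold change -3.41, SE 0.12, adjusted p = 4.56e-17, exact permutation p = 0.0119). Unlike ROBO2, its siNONO values of 345, 314 and 302 CPM and of 395, 327 and 282 CPM overlapped the controls (log2 fold change -0.11, SE 0.12, adjusted p = 0.582, exact permutation p = 0.286). The direct difference between SFPQ and NONO knockdown was -3.30 for LPP (adjusted p = 8.15e-18) and -3.28 for ROBO2 (adjusted p = 4.73e-22).

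**Figure D1:**
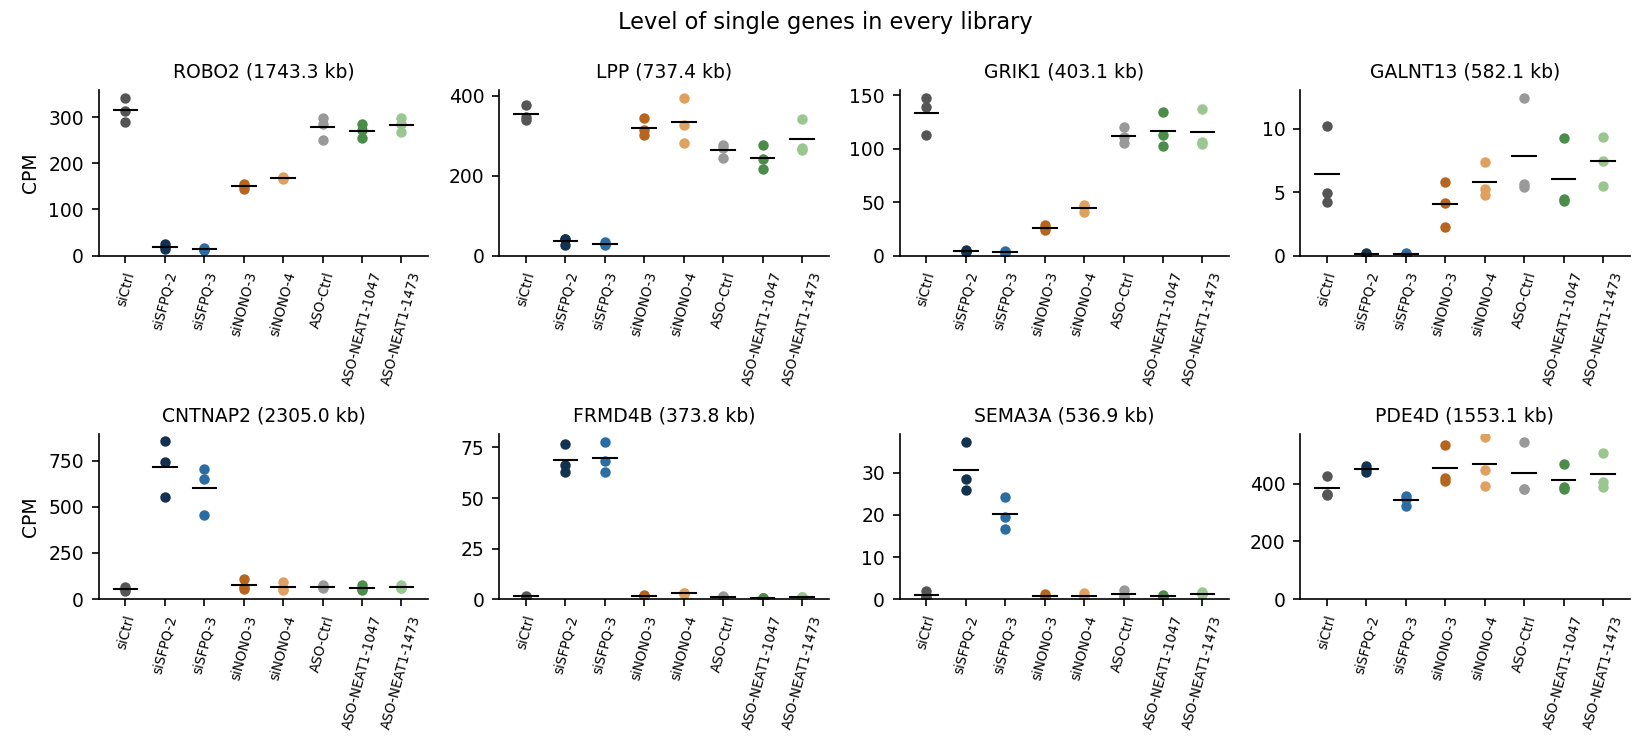
Level of 8 long genes in each library, in TMM-scaled CPM on linear axes that start at 0; each point is 1 library and each bar the mean of the 3 libraries of a group. ROBO2, LPP, GRIK1 and GALNT13 are low in the siSFPQ groups, CNTNAP2, FRMD4B and SEMA3A are high there, and PDE4D lies at 324 to 460 CPM in the siSFPQ libraries and 361 to 428 CPM in siCtrl.

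After SFPQ knockdown 351 of the 603 long genes fell and 139 rose at an edgeR adjusted p under 0.05, so that 58.2% were called lower and 23.1% higher. Over all 18451 measured genes 33.2% were called lower and 32.2% higher. The median log2 fold change was -0.95 over the long genes and -0.02 over all genes. At least 2-fold falls were found in 282 long genes, or 46.8%, against 14.9% of all genes, and at least 4-fold falls in 178, or 29.5%, against 4.90% of all genes. Rises of at least 2-fold were found in 108, or 17.9%, against 18.3% of all genes. For 312 long genes every siSFPQ library was below every siCtrl library (51.7%, against 25.8% of all genes), and for 111 every one was above (18.4%, against 26.1%). In bulk RNA a lower level per cell and fewer cells that express a gene cannot be told apart.

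Which genes could be counted depended in part on the siSFPQ libraries. There were 39 long genes that passed the filter on low values only through them. Of these 28 were called higher and 11 were not called. Their selection favours rises over falls, so this split is not read as a result. Among the 485 long genes with 0.5 CPM or more in all 3 ASO-Ctrl libraries, which are outside the contrast though part of the same model, 329 fell (67.8%) and 87 rose (17.9%), with a median of -1.14. Another gene's exons overlapped those of 337 long genes. Since the strand setting of the counting is not given in the sources used here, their reads may in part belong to the neighbour. The 266 without any such overlap had 160 falls and 56 rises, with a median of -1.15.

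Over the 603 genes the 3 span classes differed little in how often their genes fell and more in how far. In the 300 to 500 kb class 226 of 395 genes fell and 92 rose (57.2% and 23.3%), in the 500 to 1000 kb class 102 of 168 fell and 38 rose (60.7% and 22.6%), and over 1000 kb 23 of 40 fell and 9 rose (57.5% and 22.5%). The median log2 fold change was -0.79, -1.25 and -1.56 in that order, and the first quartile -2.04, -2.50 and -3.19. Falls of at least 2-fold took 43.0%, 53.6% and 55.0% of the classes. Shorter genes showed no such lean in calls or medians. Of 2410 genes spanning 100 to 300 kb 938 fell and 883 rose (38.9% and 36.6%), with a median of -0.05. The medians were 0.08 for 30 to 100 kb and -0.04 under 30 kb. Falls of at least 2-fold took 19.5% at 100 to 300 kb, 10.8% at 30 to 100 kb and 14% under 30 kb. Rises of that size took 18.9%, 17.2% and 18.7% in the same order. Over the long genes taken one by one, span and fold change had a Spearman correlation of -0.08 (603 genes that share the same libraries), so span beyond 300 kb ordered single genes weakly. Among the 485 genes measured in every ASO-Ctrl library the share that fell was 63.6%, 67.7% and 72.2% from the shortest to the longest spans in 3 equal groups. Among the 603 genes it was 57.5% of 127, 67.2% of 61 and 92.3% of 13 in the 3 classes at middle control level. It did not follow the order of the classes at low level (33.6% of 125, 33.3% of 60 and 18.8% of 16) or at high level (77.6% of 143, 87.2% of 47 and 72.7% of 11). The low level includes the 39 genes that passed the filter only through the siSFPQ libraries. The order of the class medians rests on few genes at the long end, and without any filter on low counts it was -0.51, -0.92 and -0.64.

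**Figure D2:**
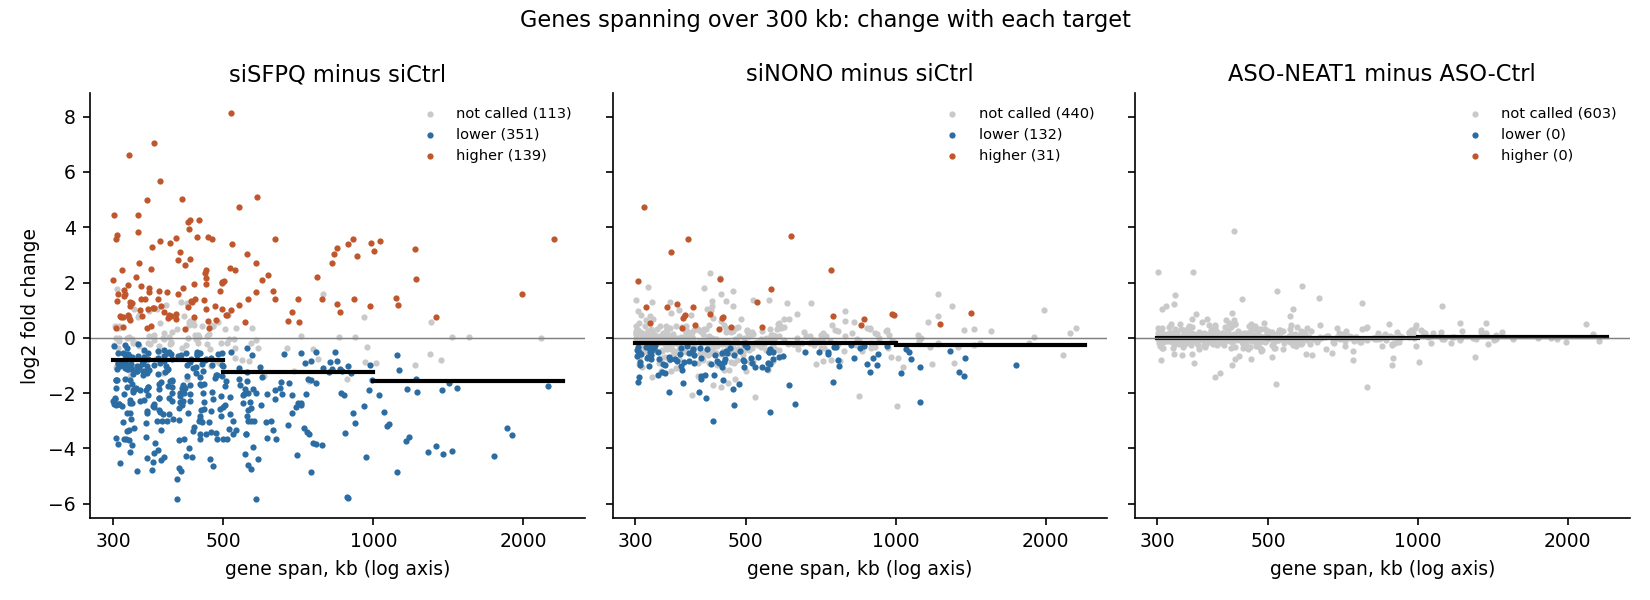
Log2 fold change of each of the 603 long genes against its span in kb (log axis) for the 3 targets; points are coloured by edgeR call, and black lines mark the median of each span class. With SFPQ the medians step from -0.79 to -1.25 and -1.56, while with NONO they lie near -0.2 and with the NEAT1 oligonucleotides near 0.

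**Figure D3:**
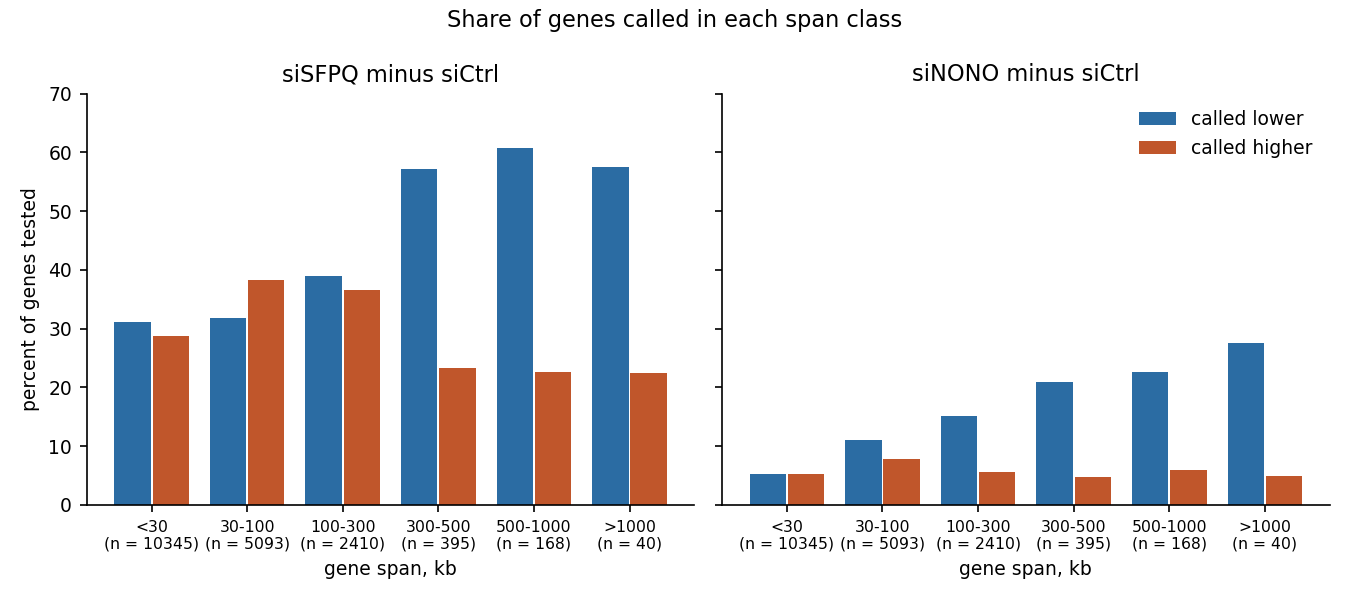
Percent of measured genes called lower and higher in 6 span classes after SFPQ (left) and NONO (right) knockdown, with the number of genes under each class. Called falls exceed called rises in every class over 300 kb for both targets, and for SFPQ the shares at 100 to 300 kb are 38.9% and 36.6%.

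Around the 300 kb line no step was visible gene by gene. The 5 genes just under it, from 297.1 to 298.8 kb, had log2 fold changes of 0.56 (WDFY3), -2.54 (CHCHD3), -0.02 (BAZ2B), -2.87 (KIAA1549L) and -0.54 (PCBP3). The 5 just over it, from 300.6 to 301.7 kb, had -2.29 (COBL), 2.08 (NOS1AP), -2.40 (SIPA1L3), 4.46 (an unnamed noncoding gene) and -0.26 (PAK5). The unnamed gene passed the filter only through the siSFPQ libraries, so its direction was largely set by that choice.

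The shift stood in every siSFPQ library. To see this, each gene's log2(CPM + 0.5) was set against the mean of the control of its arm, and the median over the long genes was taken per library. This scale pulls low genes towards 0. The median was -0.63, -0.65 and -0.67 in the siSFPQ-2 libraries and -0.84, -0.73 and -0.78 in the siSFPQ-3 libraries, against -0.02 to 0.01 in siCtrl. For genes over 1000 kb it ran from -1.08 to -0.84 with siSFPQ-2 and from -1.31 to -1.05 with siSFPQ-3. Long genes together took 2.93% to 3.13% of all counts in siCtrl and 2.03% to 2.30% in the siSFPQ libraries. The share of genes over 1000 kb did not fall with siSFPQ-2. It was 0.133% to 0.162% in siCtrl, 0.14% to 0.17% with siSFPQ-2 and 0.111% to 0.135% with siSFPQ-3. With siSFPQ-2 alone 319 long genes fell and 131 rose, against 29.5% and 29.6% of all genes. With siSFPQ-3 alone 343 fell and 130 rose, against 30.4% and 31.0%. Both siRNAs called 308 of the falls and 114 of the rises, and no long gene was called in opposite directions. The matching share over all genes was not counted, so this agreement is not read as particular to long genes. When the siRNAs were compared directly, 19 long genes were lower with siSFPQ-2 and 47 were higher (3.15% and 7.79%, against 7.15% and 4.76% of all genes).

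**Figure D4:**
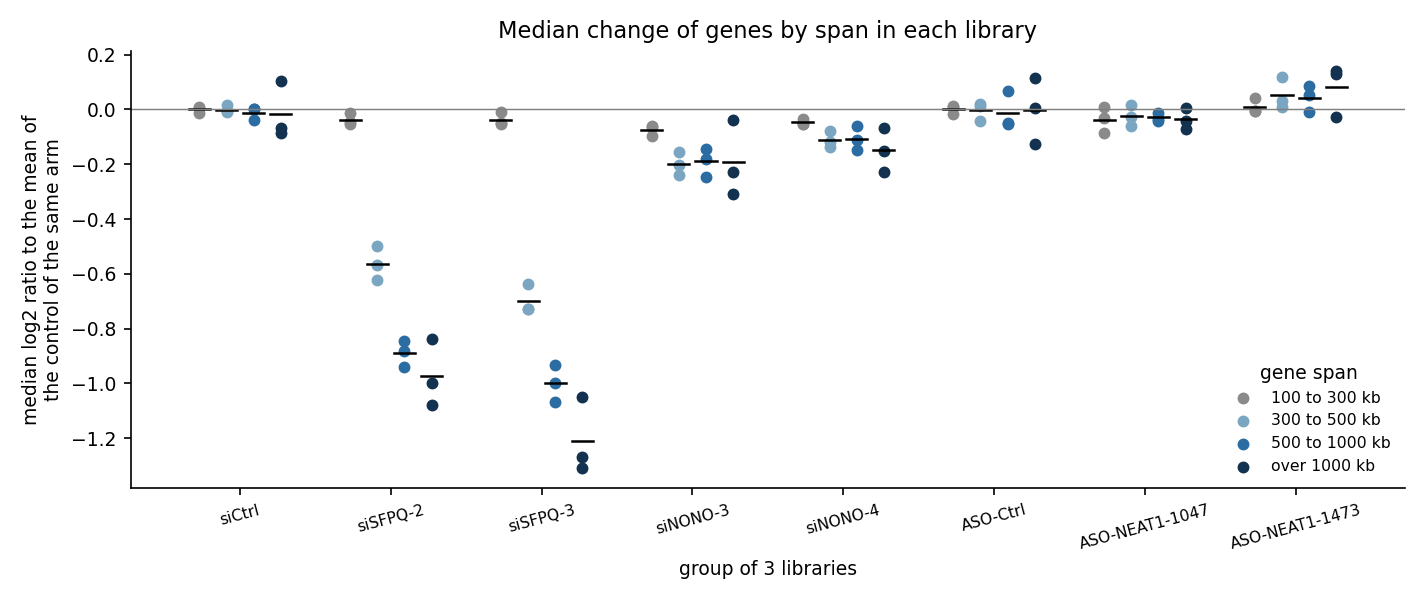
Median log2 ratio to the mean of the control libraries of the same arm, on the log2(CPM + 0.5) scale, for genes of 4 span classes; each point is 1 library and each bar the mean of 3. The siSFPQ libraries lie below all others for the 3 classes over 300 kb and near 0 for 100 to 300 kb.

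For comparison with the lists that follow, 58.2% of all 603 long genes fell and 23.1% rose, with a median of -0.95. Several adhesion molecules of the neuronal surface fell steeply. Of 14 long adhesion genes of the immunoglobulin, contactin and teneurin families 8 fell and 4 rose, with a median of -2.67. LRRTM4, 1 of the 4, passed the filter only through the siSFPQ libraries. NEGR1, an IgLON adhesion protein anchored in the membrane of neurons (886.6 kb), had 5.69, 6.93 and 5.51 CPM in siCtrl, 0.507, 0 and 0.104 CPM with siSFPQ-2 and 0, 0.121 and 0 CPM with siSFPQ-3, on 206 and 6 reads in all (-5.75, SE 0.42, adjusted p = 4.84e-13). OPCML, of the same family (1117.5 kb), had 23.0, 20.7 and 26.0 CPM in siCtrl and 0.237 to 1.77 CPM in the siSFPQ libraries (-4.86, SE 0.20, adjusted p = 3.53e-19). The gene that moved most the other way was CNTNAP2, a neurexin-like protein that clusters potassium channels along axons and, at 2305.0 kb, the longest gene measured. It had 53.5, 67.7 and 43.9 CPM in siCtrl, 853, 741 and 555 CPM with siSFPQ-2 and 649, 702 and 454 CPM with siSFPQ-3. No siSFPQ library came near a control (3.58, SE 0.28, adjusted p = 4.88e-09). ADGRL2, a latrophilin receptor, rose less, from 23.4 to 39.9 CPM in siCtrl to 55.5 to 79.4 CPM (0.93, adjusted p = 4.50e-04).

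Axon guidance genes split in the same manner, with 4 of 6 long members lower and 2 higher. Beside ROBO2, its relative ROBO1 (1170.8 kb) fell from 80.5, 64.0 and 60.3 CPM to 20.2 to 26.6 CPM with siSFPQ-2 and 13.9 to 17.4 CPM with siSFPQ-3 (-1.84, SE 0.14). SEMA3A, a secreted semaphorin that repels growth cones, rose from 0.542, 1.96 and 0.435 CPM to 25.9 to 37.3 CPM with siSFPQ-2 and 16.7 to 24.3 CPM with siSFPQ-3 (4.74, SE 0.44, adjusted p = 9.37e-09). EPHA5, an ephrin receptor, had only 5 reads in the 3 siCtrl libraries together and 238 in the 6 siSFPQ libraries. It passed the filter only through those libraries, so its rise, 1 of the 2 in this group, was largely set by that choice. Of 5 long cadherin, protocadherin and catenin genes 3 rose and 1 fell. PCDH7 rose from 2.54 to 5.17 CPM to 42.6 to 67.5 CPM and PCDH9 from 9.82 to 11.9 CPM to 40.9 to 155 CPM. CTNNA3, an alpha-catenin gene of 1851.2 kb, fell from 12.1, 11.9 and 25.7 CPM to 1.19 to 2.39 CPM (-3.26, SE 0.44). PTPRK, the 1 receptor tyrosine phosphatase measured among the long genes, fell from 8.99 to 13.4 CPM to 2.18 to 3.99 CPM (-1.86, SE 0.22).

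Receptors and channels of excitable cells held the largest fall among the named genes of 300 to 500 kb. GRIK1, a kainate-type glutamate receptor subunit (chromosome 21, 29536933 to 29940033, minus strand, 403.1 kb), had 147, 113 and 139 CPM in siCtrl. It dropped to 5.07, 4.33 and 3.84 CPM with siSFPQ-2 and to 4.04, 3.51 and 2.61 CPM with siSFPQ-3 (-5.11, SE 0.12, adjusted p = 4.71e-24). GRID1, an orphan glutamate receptor subunit (767.2 kb), had 4.79, 5.38 and 4.79 CPM in siCtrl and 0.119 to 0.721 CPM (-3.82, SE 0.33). Of the 4 glutamate and GABA receptor genes 2 fell and 2 rose. Of 8 long ion channel genes and partners 5 fell and 1 rose. FGF12 and FGF13, which despite their names stay inside the cell and modulate sodium channels, went from 82.9 to 112 CPM to 7.68 to 12.0 CPM (-3.33) and from 13.1 to 13.3 CPM to 1.09 to 3.85 CPM (-3.04). ANO3, an anoctamin-family membrane protein, was the exception, at 16.4, 9.72 and 7.83 CPM in siCtrl, 161, 138 and 149 CPM with siSFPQ-2 and 106, 127 and 131 CPM with siSFPQ-3 (3.58, SE 0.30).

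Glycosyltransferases, the Golgi enzymes that build sugar chains, showed 7 falls and no rise among 9 long genes, with a median of -2.71, whereas the 25 measured genes of the list, short ones included, had 11 falls and 9 rises and a median of 0.11. GALNT13, which starts mucin-type chains (582.1 kb), went from 4.24, 4.96 and 10.2 CPM to 0, 0.240 and 0.104 CPM with siSFPQ-2 and 0.119, 0.242 and 0 CPM with siSFPQ-3, on 235 and 5 reads (-5.81, SE 0.67, adjusted p = 1.92e-07). HS6ST3, a heparan sulfate 6-O-sulfotransferase made of 2 merged exons around an intron of 740.9 kb, had 11.7, 9.31 and 9.79 CPM in siCtrl and 0.104 to 0.721 CPM (-4.85, SE 0.28). ST6GALNAC3, a sialyltransferase (559.9 kb), had 5.44 to 6.23 CPM in siCtrl and 0.104 to 0.481 CPM (-4.58, SE 0.29).

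Signalling enzymes were mostly lower, as were the long genes at large (58.2%). Of 11 long phosphodiesterase and protein kinase C or G genes 7 fell and 1 rose, with a median of -0.79. PRKCA, a classical protein kinase C, fell from 22.8 to 29.7 CPM to 1.42 to 3.36 CPM (-3.66, SE 0.16). PDE3A, which breaks down cyclic AMP, fell from 139, 120 and 160 CPM to 16.1 to 25.2 CPM with siSFPQ-2 and 8.08 to 10.7 CPM with siSFPQ-3 (-3.37, SE 0.17). Its control level itself differed between arms, since ASO-Ctrl had 55.4 to 79.1 CPM. TBC1D5, a Rab GTPase-activating protein of endosomes (1287.7 kb), fell from 108, 119 and 121 CPM to 4.27 to 9.85 CPM (-4.11, SE 0.12, adjusted p = 4.09e-22), and AGAP1, an Arf GTPase-activating protein, fell from 47.9 to 51.9 CPM to 3.02 to 5.20 CPM (-3.66, SE 0.11). ARHGEF28, a guanine nucleotide exchange factor, rose from 2.35 to 2.79 CPM to 5.05 to 13.2 CPM (1.72, SE 0.22), and DOCK4, also an exchange factor, rose from 5.29 to 8.76 CPM to 12.5 to 19.5 CPM (1.17, SE 0.26).

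Of 35 long cytoskeletal and junctional linker genes 18 fell and 9 rose, with a median of -0.76. DIAPH2, a formin that assembles actin (920.3 kb), fell from 8.70 to 13.8 CPM to 0.727 to 2.16 CPM (-3.09, SE 0.23). FRMD4B, a scaffold of epithelial junctions (373.8 kb), had 1.17, 1.76 and 1.16 CPM in siCtrl, 76.5, 63.0 and 66.2 CPM with siSFPQ-2 and 68.1, 77.8 and 63.0 CPM with siSFPQ-3, so the 2 siRNAs gave the same level within their spread (5.68, SE 0.17, adjusted p = 3.40e-22). MYO5B, a myosin that moves recycling endosomes, rose from 0.508 to 1.24 CPM to 8.54 to 14.0 CPM (3.50, SE 0.36). DCLK1, a microtubule-associated kinase outside these lists, had the largest rise among the named genes, from 8 reads in siCtrl (0.145 to 0.310 CPM) to 17.1 to 47.1 CPM (7.03, SE 0.42, adjusted p = 2.01e-13).

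Among 41 long genes of the list of transcription and chromatin regulators 26 fell and 10 rose, with a median of -0.99. SMYD3, a lysine methyltransferase, went from 29.4 to 33.1 CPM to 2.02 to 2.85 CPM (-3.80, SE 0.13), and PRDM16, a zinc finger regulator, from 10.5 to 13.6 CPM to 0.363 to 1.14 CPM (-4.07, SE 0.21). Both RUNX factors of this size rose. RUNX2 had 2.62, 3.41 and 1.81 CPM in siCtrl and 48.9 to 65.1 CPM in the siSFPQ libraries (4.45, SE 0.24, adjusted p = 9.75e-15), and RUNX1 had 2.25 to 3.83 CPM and 8.61 to 19.1 CPM (2.12, SE 0.26). SOX5, a SOX family factor over 1000 kb long, rose from 0.451 to 1.45 CPM to 8.41 to 13.4 CPM (3.51, SE 0.27). This list was loose: GPC6, a cell surface proteoglycan, VTI1A, a vesicle fusion protein, and LPP were counted in it, and all 3 fell.

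All 5 long RNA-binding protein genes of the list fell, with a median of -1.66. RBMS3, a single-strand binding protein (1435.6 kb), went from 65.6, 48.2 and 46.7 CPM to 2.02 to 3.92 CPM (-4.10, SE 0.21), and MSI2, a Musashi translational regulator, from 142 to 162 CPM to 40.6 to 55.2 CPM (-1.72, SE 0.09). Membrane traffic, ubiquitin and autophagy genes showed 16 falls and 3 rises among 19, with a median of -1.40. KLHL29 fell from 13.1 to 17.0 CPM to 0.634 to 2.16 CPM (-3.69, SE 0.19) and FBXL17, an F-box protein of ubiquitin ligases, from 35.8, 35.9 and 36.3 CPM to 2.66 to 6.25 CPM (-3.02, SE 0.13). NEDD4L, a ubiquitin ligase that removes ion channels from the membrane, rose from 14.7 to 24.3 CPM to 92.0 to 128 CPM (2.50, SE 0.20), and NAV3 rose from 0.290 to 1.14 CPM to 2.28 to 12.1 CPM (3.38, SE 0.45).

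Genes at common fragile sites, the chromosome regions that break under replication stress, were mostly lower. Of 14 such genes 11 fell and 1 rose, with a median of -1.38. The 1 that rose, THSD7A, passed the filter only through the siSFPQ libraries, so its direction was largely set by that choice. PARD3B, a polarity protein, went from 6.72 to 8.04 CPM to 0.237 to 1.68 CPM (-3.10, SE 0.30), and RAD51B, a recombination protein, from 16.9 to 17.9 CPM to 1.76 to 3.80 CPM (-2.73, SE 0.16). Over the 603 long genes these shares were 58.2% lower and 23.1% higher, and over all genes 33.2% and 32.2%. The genes of these lists were chosen with earlier results of these data known, so their counts are descriptions.

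Further large falls lay outside the lists. TAFA5, a secreted chemokine-like protein (361.4 kb), had 10.1, 7.96 and 9.21 CPM in siCtrl and 0.127 to 0.711 CPM in the siSFPQ libraries (-4.50, SE 0.23). CPA6, a carboxypeptidase, had 25.8, 24.5 and 35.1 CPM and 1.07 to 2.40 CPM (-4.14, SE 0.17). SLC14A2, a urea transporter, had 1.90, 3.21 and 4.64 CPM and at most 0.311 CPM, with a wide error (-4.37, SE 1.16, adjusted p = 0.00325). Rises outside the lists in the 500 to 1000 kb class were CASC15, a long noncoding RNA, from 1.14 to 1.72 CPM to 10.2 to 22.5 CPM (3.43, SE 0.25), and LRRC7, a synaptic scaffold, from 5 reads in siCtrl to 253 in the siSFPQ libraries. LRRC7 passed the filter only through the siSFPQ libraries, so that its rise was largely set by that choice.

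None of the 50 listed factors for pause release, elongation, termination and the U1 particle is a long gene, and all 50 were measured. After SFPQ knockdown 15 fell and 20 rose, with a median of 0.05, while over all measured genes 33.2% fell and 32.2% rose. The transcription elongation factors AFF4 and SUPT5H rose by 1.51 and 1.25 on the log2 scale (adjusted p = 1.85e-18 and 9.44e-15), and SUPT4H1 and SSRP1 fell by 1.28 and 1.06 (adjusted p = 6.59e-04 and 2.33e-15). SUPT4H1 was low, at 0.237 to 3.89 CPM across libraries.

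Long genes that did not fall had a lower control level and more exons at the median than those that fell, and those that rose also had longer exonic sequence. In ASO-Ctrl, which is outside the SFPQ contrast, the median level was 19.2 CPM (quartiles 4.48 and 60.3) for the 351 long genes that fell. It was 1.48 CPM (0.476 and 10.9) for the 113 not called and 1.89 CPM (0.332 and 13.7) for the 139 that rose. Of these, 11 not called and 28 that rose passed the filter only through the siSFPQ libraries and so were low in controls by selection. Among the 485 genes measured in every ASO-Ctrl library the gap was smaller. There the median level was 23.7 CPM for the 329 that fell, 8.25 CPM for the 69 not called and 9.07 CPM for the 87 that rose. When the 603 genes were cut into tertiles, equal groups by rank, of this level, at 2.40 and 24.7 CPM, 32.3% fell in the lowest, 62.7% in the middle and 79.6% in the highest tertile. The share that rose was 35.3%, 20.4% and 13.4%. All 39 genes that passed the filter only through the siSFPQ libraries lay in the lowest tertile, and without them 40.1% of its 162 genes fell and 26.5% rose. Low genes are also harder to call, and 65, 34 and 14 of the 201 genes per tertile were not called. The median change was 0.01, -0.97 and -1.21 by tertile, and -0.75 in the lowest without those 39 genes. Among the 485 genes measured in every ASO-Ctrl library the medians were -1.06, -1.10 and -1.20 by tertiles of their own, and 56.2%, 66.5% and 80.9% fell, so there the share that fell rose with level in CPM while the median change moved little.

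Short genes of the same level did not fall as often. Above 24.7 CPM in ASO-Ctrl 160 of 201 long genes fell and 27 rose, whereas 46.7% of 1206 genes spanning 100 to 300 kb, 38.9% of 2530 spanning 30 to 100 kb and 50.5% of 2423 under 30 kb fell. The median log2 fold change was -1.21 for these long genes and -0.13, -0.03 and -0.22 for the shorter classes. In the lowest tertile of level 33.6% of the 300 to 500 kb genes fell, as many as rose. There 15.4% of 521 genes spanning 100 to 300 kb fell and 43.2% rose. That tertile holds all 39 long genes that passed the filter only through the siSFPQ libraries, of which 28 rose. Without them 40.1% of its 162 long genes fell and 26.5% rose. Shorter genes that passed in this way were not set apart, so part of the rises in each class may be set by the filter.

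Exon number moved with the outcome too. The merged exon count had a median of 24 in genes that fell, 28 in genes not called and 29 in genes that rose. With up to 20 exons 67.5% of 209 genes fell and 15.8% rose, with 21 to 33 exons 58.2% of 196 fell and 24.5% rose, and with 34 or more 48.5% of 198 fell and 29.3% rose. By exonic length 66.2%, 57.2% and 51.2% fell from the shortest to the longest tertile, and 12.4%, 27.4% and 29.4% rose. Among the 485 genes 75.9%, 67.1% and 60% fell from the fewest to the most exons, and 77.8%, 65.2% and 60.5% from the shortest to the longest exonic length. The median exonic length was 9767 bases in fallen, 9573 bases in uncalled and 12088 bases in risen genes. These features are tied to each other, and longer exons also collect more reads. Within the highest tertile of level, genes at or under the median exonic length of 10358 bases fell in 87.8% of 90 cases and longer ones in 73.0% of 111. In the middle tertile the shares were 74.8% of 107 and 48.9% of 94, and in the lowest tertile they were 33.3% and 31.2%. For exon number, split at the median of 26 merged exons, the shares in the highest tertile lay closer. There 82.5% of 80 genes with up to 26 exons fell and 77.7% of 121 with more. The shares were 69.6% of 125 and 51.3% of 76 in the middle tertile, and 39.8% of 98 and 25.2% of 103 in the lowest.

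The longest gap between merged exons, in effect the longest intron, was larger where genes fell more. The median change was -0.56, -1.07 and -1.36 from the tertile with the shortest to the tertile with the longest gaps, and 51.2%, 62.7% and 60.7% fell. Where the gap began along the gene made little difference, with 57.2%, 56.2% and 61.2% falling from the most 5' to the most 3' tertile. Spearman's correlation with the log2 fold change over the 603 genes was -0.29 for level, -0.35 for level per kb of exon, 0.26 for exon number, 0.23 for exonic length, -0.20 for the longest gap and -0.08 for span. Over the 485 genes measured in every ASO-Ctrl library these were, in the same order, -0.07, -0.18, 0.26, 0.26, -0.23 and -0.15. All points of these correlations come from the same libraries. Protein-coding genes fell in 61.6% of 502 cases and other types in 42.9% of 98.

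**Figure D5:**
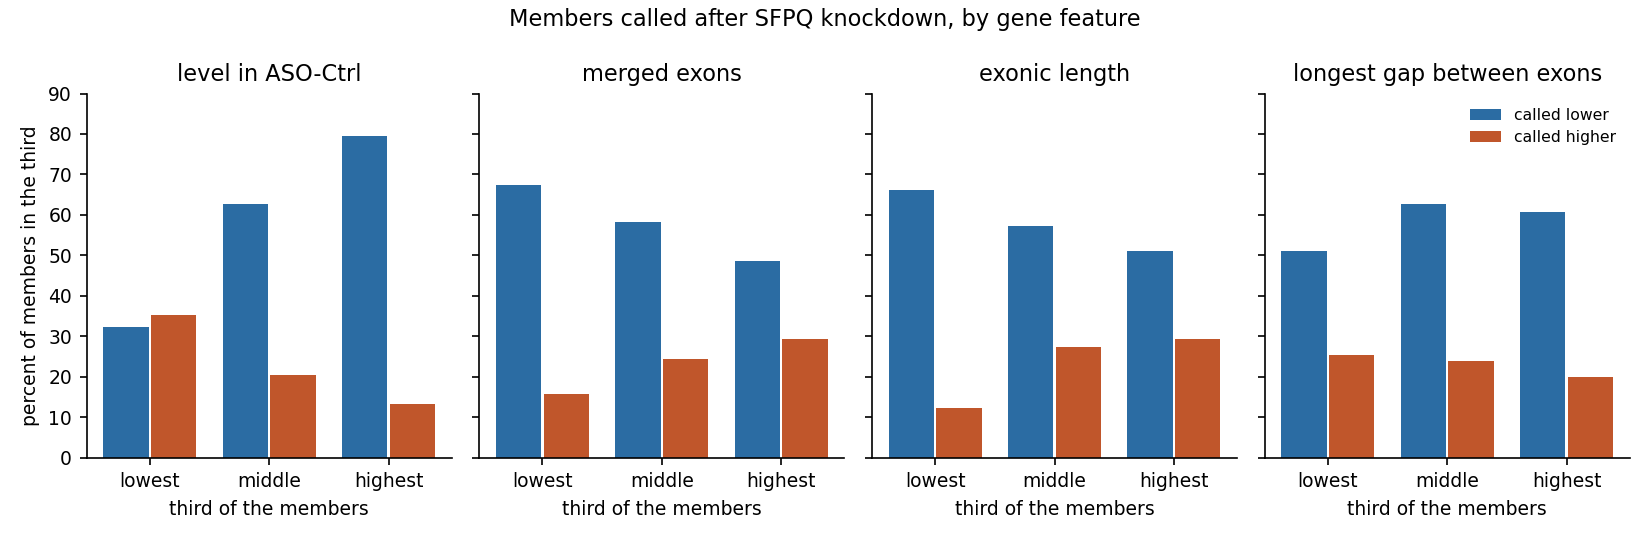
Percent of long genes called lower and higher after SFPQ knockdown in tertiles by level in ASO-Ctrl (CPM), merged exon number, exonic length and longest gap between exons; each tertile holds 196 to 209 genes. The called falls go from 32.3% to 79.6% with level and from 67.5% to 48.5% with exon number. The lowest tertile of level holds the 39 genes that passed the filter only through the siSFPQ libraries.

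The 5 most abundant genes that did not fall were PDE4B, STAG2, MACF1, PDE4D and RDX. PDE4B, a phosphodiesterase for cyclic AMP (582.1 kb, 28 merged exons), had 655, 693 and 769 CPM in siCtrl, 594, 616 and 742 CPM with siSFPQ-2 and 666, 651 and 750 CPM with siSFPQ-3, which overlap throughout (-0.08, SE 0.11, adjusted p = 0.576). Its relative PDE4D is 1553.1 kb long. It had 365, 361 and 428 CPM in siCtrl, 451, 460 and 442 CPM with siSFPQ-2 and 346, 358 and 324 CPM with siSFPQ-3 (0.03, SE 0.13, adjusted p = 0.846). Its siSFPQ-2 libraries thus lay above the controls and its siSFPQ-3 libraries below, and neither siRNA was called alone (adjusted p = 0.184 and 0.326). STAG2, a cohesin subunit, had 592, 632 and 563 CPM in siCtrl, 534, 568 and 582 CPM with siSFPQ-2 and 693, 666 and 704 CPM with siSFPQ-3. It was not called for the mean of the siRNAs (0.06, SE 0.06, adjusted p = 0.380) and was called higher by 0.21 with siSFPQ-3 alone (adjusted p = 0.0107). MACF1, a giant linker of actin and microtubules with 113 merged exons, rose from 476, 508 and 550 CPM to 1150 to 1480 CPM with siSFPQ-2 and 1710 to 1870 CPM with siSFPQ-3 (1.60, SE 0.08). RDX, which ties actin to the membrane, rose from 293 to 401 CPM to 621 to 784 CPM and 1030 to 1130 CPM (1.28, SE 0.13). RDX and MACF1 lay above their controls in all 6 siSFPQ libraries. For all 5 genes the change less 2 SE stayed above a 2-fold fall.

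Span alone did not decide the outcome at the top of the range. Of the 5 longest genes CNTNAP2 rose, DMD and LRP1B fell, EYS rose and DLG2 was not called. DMD, the dystrophin gene (2241.9 kb), had 2.71, 5.07 and 3.70 CPM in siCtrl, 1.39, 2.40 and 2.91 CPM with siSFPQ-2, which overlap, and 0.119, 0.726 and 0.830 CPM with siSFPQ-3, which do not (-1.75, SE 0.38, adjusted p = 2.54e-04). LRP1B, a lipoprotein receptor-like protein (1899.6 kb), had 3.70, 2.28 and 2.90 CPM and at most 0.475 CPM (-3.52, SE 0.37). EYS rested on 12 reads in siCtrl and 50 in the siSFPQ libraries (1.58, SE 0.53, adjusted p = 0.00973). Similarly, DLG2, a synaptic scaffold, had only 0.722 to 1.38 CPM in siCtrl and 0.507 to 1.68 CPM with siSFPQ (-0.01, SE 0.35, adjusted p = 0.990), where a change below the spread was not detectable at this depth.

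NONO knockdown moved fewer long genes and moved them less. Of 603, 132 fell and 31 rose (21.9% and 5.14%), against 8.67% and 6.06% of all genes, with a median log2 fold change of -0.20 against -0.01. Changes of at least 2-fold were found in 37 long genes that fell and 13 that rose, or 6.14% and 2.16%, against 1.64% and 1.47% of all genes. Every siNONO library lay below every siCtrl library for 113 long genes, or 18.7%, against 7.17% of all genes, and above for 37, or 6.14%, against 6.92%. By class 83 of 395 fell and 19 rose at 300 to 500 kb, 38 of 168 fell and 10 rose at 500 to 1000 kb, and 11 of 40 fell and 2 rose over 1000 kb, with medians of -0.20, -0.19 and -0.25. Falls were already more frequent than rises at 100 to 300 kb, with 15.1% and 5.68% of 2410 genes. siNONO-3 alone gave 148 falls and 38 rises (against 9.32% and 7.22% of all genes) and siNONO-4 alone 71 and 22 (against 5.00% and 3.98%). The siRNAs shared 59 falls and 15 rises, and the matching share over all genes was not counted. With the replicate number as a block, 194 long genes fell and 60 rose, while over all genes 2601 fell and 1966 rose, against 1600 and 1118 without the block. Without the library siCtrl replicate 1 the counts were 91 and 17 long genes, and 988 and 614 over all genes.

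Again GRIK1 was among the largest falls. It had 28.4, 25.4 and 23.8 CPM with siNONO-3 and 47.4, 45.8 and 41.0 CPM with siNONO-4, against 113 to 147 CPM in siCtrl (-1.97, SE 0.10, adjusted p = 5.56e-15). OPCML, HS6ST3 and NEGR1 fell with both targets, by 1.05, 1.59 and 1.24 on the log2 scale with NONO. FBXL17 had 12.9 to 21.0 CPM in the siNONO libraries against 35.8 to 36.3 CPM in siCtrl (-1.07, SE 0.11, adjusted p = 6.34e-08). By group, 9 of 19 long membrane traffic and ubiquitin genes fell, 7 of 14 fragile site genes, 5 of 9 glycosyltransferases and 4 of 14 adhesion genes, with no rise in any of them. Of 41 transcription and chromatin regulators 7 fell and 1 rose, as did 7 and 1 of 35 cytoskeletal genes, and of 4 glutamate and GABA receptor genes 3 fell and 1 rose. Rises with NONO were led among the named genes by LNCAROD, a long noncoding RNA, from 0.943 to 2.17 CPM to 3.77 to 8.06 CPM (2.07, SE 0.40, adjusted p = 0.00104), and PVT1, a noncoding RNA beside the MYC gene, from 44.7, 44.7 and 69.9 CPM to 95.2 to 141 CPM (1.13, SE 0.17, adjusted p = 9.53e-05). Both also rose with SFPQ knockdown, by 3.58 and 0.81.

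Both comparisons use the same siCtrl libraries, so their values are set side by side only. The 351 long genes that fell with SFPQ had a median of -2.01 there and -0.26 with NONO. The 139 that rose with SFPQ had medians of 1.69 and -0.12. In the direct comparison of the knockdowns, in which siCtrl cancels, 335 long genes were lower with SFPQ knockdown and 149 higher (55.6% and 24.7%, against 35.6% and 35.1% of all genes). The median difference was -0.54, -1.11 and -1.39 in the 3 classes, from the shortest to the longest spans.

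Some long genes were called in opposite directions. ANO3 rose with SFPQ knockdown and fell with NONO to 1.18, 1.28 and 0.750 CPM with siNONO-3 and 5.22, 3.77 and 3.07 CPM with siNONO-4 (-2.43, SE 0.38, adjusted p = 2.78e-04). BABAM2, a subunit of a BRCA1-associated deubiquitinase complex, had 198, 174 and 244 CPM in siCtrl, 14.8 to 24.1 CPM in the siSFPQ libraries (-3.46, SE 0.14) and 293 to 402 CPM in the siNONO libraries (0.72, SE 0.14, adjusted p = 8.23e-04). In TPRG1, next to LPP on chromosome 3, the values were 61.1 to 83.3 CPM in siCtrl, 6.05 to 16.3 CPM with siSFPQ (-2.77) and 96.9 to 168 CPM with siNONO (0.82, adjusted p = 0.00507). UNC79, a subunit of a sodium leak channel complex, had 3.10 to 4.13 CPM in siCtrl, 5.56 to 12.0 CPM with siSFPQ (1.15) and 0.469 to 2.09 CPM with siNONO (-1.63, adjusted p = 3.88e-06). FOXP1, a forkhead factor, rested on 14 reads in siCtrl (1.71 with SFPQ, -2.38 with NONO), and its call for NONO was lost without siCtrl replicate 3 (-1.39, adjusted p = 0.384). GRIK2 had 2.89, 1.55 and 0.943 CPM in siCtrl, 5.96 to 6.64 CPM with siSFPQ-2 and 2.25 to 3.27 CPM with siSFPQ-3. It fell with NONO (-2.33, adjusted p = 0.00227), and its rise with SFPQ (1.19) was lost without siCtrl replicate 3 (0.85, adjusted p = 0.0806).

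In the libraries labelled ASO-NEAT1 no long gene was called. edgeR called 0 of 603, DESeq2 called 0 as well, and 10 had an unadjusted p under 0.05. Over all 18451 genes edgeR also called 0 (0%) and 453 had an unadjusted p under 0.05. All 6 of these libraries lay below every ASO-Ctrl library for 6 long genes and above for 6 (0.995% each, against 1.02% and 0.948% of all genes). The median log2 fold change of the long genes was 0.004, and 0.004, 0.001 and 0.01 in the 3 classes. LPP had 216 to 277 CPM with ASO-NEAT1-1047 and 265 to 343 CPM with ASO-NEAT1-1473, beside 245 to 276 CPM in ASO-Ctrl. Per library the median over the long genes lay from -0.05 to 0.11 in these 6 libraries and from -0.05 to 0.04 in ASO-Ctrl.

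The controls of the arms differed at 5 long genes, 4 lower and 1 higher in ASO-Ctrl than in siCtrl (0.663% and 0.166%, against 0.282% and 0.103% of all genes). PDE3A was among the lower ones. With ASO-Ctrl in place of siCtrl as the control of the siSFPQ groups, 340 long genes were called lower and 146 higher (56.4% and 24.2%, against 33.9% and 32.6% of all genes).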

How the data were processed

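RNA was sequenced from 24 libraries in 8 groups of 3. The authors deposited gene counts per library with gene coordinates. Per the submitters' processing notes, which name cutadapt 4.2, STAR 2.7.5a, featureCounts (Subread 2.0.3), DESeq2 1.38.1 and hg38, the deposited values are whole-number read counts. For the strand setting and the annotation release, not given in the sources used here, no assumption was made. A read from a long gene is counted in its exons only, so intronic RNA does not enter.

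Span was the largest exon end less the smallest start plus 1. Genes were kept at 0.5 CPM or more in at least 3 libraries, and 1 model over all 24 libraries was fitted with edgeR 4.0.16 in R 4.3.3 (TMM scaling, robust quasi-likelihood test, limma 3.58.1). The siSFPQ and siNONO groups were each set against siCtrl and the ASO-NEAT1 groups against ASO-Ctrl, each target as the mean of its 2 reagents. P-values were adjusted by Benjamini-Hochberg over 18451 genes, with a call at an adjusted p under 0.05. CPM are TMM-scaled. ROBO2 and LPP were also tested by exact permutation. The scripts were tested on simulated data.

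The long genes and the lists (groups of long genes by function, elongation factors, small cell lung cancer markers and markers of other cell types) were chosen with earlier results of these data known. Named genes are ROBO2 and LPP, the largest changes per span class with SFPQ and over all long genes with NONO (called by both reagents, 5 CPM or more in 1 group), the 5 longest, the 5 most abundant that did not fall, up to 2 per direction and list, and 4 with opposite calls. Same-numbered libraries deviated together in the ASO arm (r 0.344 to 0.662) and between siCtrl and the siNONO groups (r 0.321 to 0.569), but not throughout the siSFPQ groups (lowest r -0.083). Blocked values are therefore given beside the NONO counts. Some items are not reported here. Intervals of read ratios (95%) cover counting error only. Alternatives were RLE and upper quartile scaling, DESeq2 1.42.0, other filters, other spans, subsets of genes, the replicate block, separate fits, leaving out libraries, and ASO-Ctrl as control.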

Additional observations from a re-analysis of the deposited data

Results flagged for a closer look

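The 2 siRNAs against a target gave different sizes of change at several long genes named in the report, by edgeR's test of the difference between them (Benjamini-Hochberg adjusted p). With siSFPQ-2 less siSFPQ-3, the log2 difference at DMD was 1.99 (SE 0.59, adjusted p = 0.0255), and only the siSFPQ-3 libraries lay clear of the controls. OPCML differed by 1.68 (adjusted p = 0.0136) and PCDH9, a protocadherin that rose with both, by 1.53 (adjusted p = 4.84e-05), at 118 to 155 CPM against 40.9 to 53.1 CPM. GRIK2 differed by 1.28 (SE 0.42, adjusted p = 0.0469) and PDE3A by 1.07 (adjusted p = 0.00656). Smaller differences in this direction were 0.80 at UNC79, 0.67 at ROBO1 and 0.51 at ROBO2 (adjusted p = 0.00729, 0.0199 and 0.0267). The level was higher with siSFPQ-3 at ARHGEF28 (-0.66), CASC15 (-0.65), RDX (-0.59), MACF1 (-0.42) and STAG2 (-0.29), with adjusted p from 0.0007 at MACF1 to 0.0499 at ARHGEF28.

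With siNONO-3 less siNONO-4, EYS differed by 2.39 (adjusted p = 0.00655), at 0.786 to 2.53 CPM against 0.205 to 0.431 CPM, and 12.9% of its exonic bases overlap other genes. OPCML differed by -1.18 (adjusted p = 1.97e-05), at 6.19 to 9.57 CPM against 16.2 to 17.8 CPM. UNC79 differed by -1.10 (adjusted p = 0.0292) and HS6ST3 by -1.07 (adjusted p = 0.00795), both lower with siNONO-3. The same direction was found at FRMD4B (-0.81, adjusted p = 0.0256), GRIK1 (-0.79, adjusted p = 7.81e-05) and ROBO1 (-0.61, adjusted p = 0.0135). OPCML was thus lower with siSFPQ-3 than with siSFPQ-2 and lower with siNONO-3 than with siNONO-4.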

How the results depend on the processing

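No summary value changed direction past the threshold under any alternative run. Nor did a named gene with SFPQ or NONO in the runs where it was compared. Named genes were not compared in the separate fits or with ASO-Ctrl as control. Outside the leave-one-out fits 97 of 129 summary values stayed within the replicate spread or within 1.5 times the count. After SFPQ knockdown the median log2 change of the long genes was -0.785 for spans over 250 kb, -1.03 over 400 kb, -1.15 without exon overlap, -1.01 for protein-coding genes, -0.898 with RLE factors, -0.91 with upper quartile factors, -0.603 with no low-count filter and -0.892 with DESeq2. Chosen after seeing the data, the genes measured in all ASO-Ctrl libraries gave -1.14 with 87 rises, and ASO-Ctrl as control gave -0.88. Over 400 kb 207 fell and 85 rose, and without exon overlap 160 and 56. With NONO the same sets gave 80 and 18, and 62 and 16, protein-coding genes 20 rises, and upper quartile factors a median of -0.174. These sets hold fewer genes; otherwise the cause was not tested. For 300 to 500 kb the SFPQ median was -0.734 (RLE), -0.741 (upper quartile), -0.508 (no filter) and -0.732 (DESeq2). For 500 to 1000 kb it was -1.20 (RLE), -1.31 (edgeR's filterByExpr), -0.922 (no filter) and -1.2 (DESeq2), and over 1000 kb -1.72 (filterByExpr) and -0.637 (no filter). With the replicate block NONO knockdown gave 194 falls and 60 rises and SFPQ knockdown 361 and 147, where the numbers pair only part of the libraries. Leaving out 1 library at a time gave 333 to 350 falls, 123 to 133 rises and medians of -1.002 to -0.881 for SFPQ, with -0.864 to -0.712, -1.335 to -1.17 and -1.731 to -1.344 by class, and for NONO 91 to 137 falls, 17 to 31 rises and medians of -0.222 to -0.176. The fewest NONO rises came without siCtrl replicate 1. Taking each named gene once with SFPQ and once with NONO, 21 such results gained or lost a call under some setting. Genes at a few reads, such as DLG2 and EYS, are limited by depth.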

Other observations

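Some rises after SFPQ knockdown lay in genes nearly silent in control cells, and 3 are named here after their values were seen. All 3 passed the filter on low values only through the siSFPQ libraries. Their direction was largely set by that choice, and their values are a description. RELN, a secreted glycoprotein that guides neuronal migration (518.3 kb), had 0 reads in the 3 siCtrl libraries and 152 in the 6 siSFPQ libraries. Set against a floor of 3 counts over the siCtrl group, it was at least 37.4-fold higher. LAMA2, a laminin chain of muscle basement membranes (633.4 kb), had 3 reads in siCtrl and 54 with SFPQ knockdown, a ratio of 13.3 after library size (95% counting interval 4.31 to 66.4, for counting error only). DOCK2, an exchange factor of blood cells (446.1 kb), had 1 and 42 reads, a ratio of 31.0 (5.27 to 1250).

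By chromosome, the long genes that fell and rose after SFPQ knockdown numbered 36 and 8 on chromosome 2 and 18 and 2 on chromosome 15. They numbered 12 and 3 on chromosome 17, 28 and 17 on chromosome 7 and 16 and 12 on chromosome 4. In the same order 5, 5, 1, 8 and 4 long genes were not called. These chromosomes were picked from all that hold long genes. Over all 603 long genes 58.2% fell and 23.1% rose, against 33.2% and 32.2% of all measured genes. No test was made of these counts.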
